A study of Homo sapiens with 2 samples.

Results

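The 9 genes described here encode coactivators and corepressors of estrogen receptor alpha: NCOA1, NCOA2, NCOA3, EP300, CREBBP, MED1, NCOR1, NRIP1 and TLE3. They were chosen by name as known partners of the receptor or its pioneer factors, and all 9 of 9 names were matched to 1 row each among the 57820 genes of the count table. The choice was made with earlier results of these data known. The RNA came from T47D, a human breast cancer line of luminal type that depends on estrogen receptor alpha. The cells carried the ESR1 mutation Y537S, were kept in hormone-deprived medium and received a control siRNA at 25 nM. All described samples formed 1 group, of 2 libraries, with 41370662 reads on genes in replicate 1 and 37198274 in replicate 2. They do not say whether the Y537S cells are 1 clone, nor whether the replicates were separate cultures, and the spread seen here may therefore be technical. Levels of the FM, 5M and 8M columns in the deposited tables were not analysed here, because they match no described sample. No comparison between conditions was therefore made, and every value below describes this control state. In bulk RNA, fewer cells with a transcript and less RNA per cell cannot be told apart.

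Estrogen receptor alpha activates transcription by recruiting coactivators through a groove on its ligand-binding domain, into which short leucine-rich helices of the coactivators dock. Coactivators of the p160 family bind first and bring in acetyltransferases, which loosen chromatin, and the Mediator complex, which contacts RNA polymerase II. Corepressors bind the receptor or its neighbours on chromatin and recruit histone deacetylases. The Y537S exchange lies in the ligand-binding domain and holds the receptor in a form that binds coactivators without hormone.

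The libraries carried the markers of the labelled cell type. All 6 luminal genes were detected, where detection means at least 1 CPM, the read count scaled to the library total, in both libraries, and their summed level was 2278 and 2155 TPM in replicates 1 and 2. TPM divides the reads of a gene by its summed exon bases and scales each library to the same total. Nuclear protein-coding genes held a smaller part of this total in replicate 2. The factor from TPM to TPM over these genes alone was 3.35 in replicate 1 and 3.78 in replicate 2. Differences and SDs of TPM between the libraries include this shift, so they do not by themselves show how well a level was repeated. None of the 3 basal, 3 fibroblast and 2 leukocyte markers was detected. Their summed levels were 0.359 and 0.205 TPM for the basal genes, 0.0228 and 0.0296 TPM for the fibroblast genes and 0.332 and 0.644 TPM for the leukocyte genes. DCN had no reads in either library. TP63 reached 1 CPM in replicate 1 only, with 1.47 against 0.806 CPM in replicate 2. CD74 reached it in replicate 2 only, with 1.29 against 0.677 CPM in replicate 1.

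All 9 coregulators were detected, against 24.5% of all genes in the table and 60.9% of protein-coding genes. In TPM, NRIP1, NCOA3 and MED1 had the highest means and EP300, TLE3 and CREBBP the lowest. In CPM NRIP1 and NCOA3 were again highest, but MED1, with 127 ± 4.61 CPM, stood beside NCOA2 with 126 ± 3.42 and below NCOR1 with 139 ± 1.53 CPM (SD, n = 2). The highest mean was 10.6-fold above the lowest in TPM and 5.58-fold in CPM. The median over the members was 13.9 TPM in replicate 1 and 12.7 TPM in replicate 2. The median over the 11718 detected protein-coding genes of the nuclear genome was 9.89 and 8.61 TPM. By mean TPM, 5 of the 9 members lay above the middle of the detected protein-coding genes, which divides those genes evenly by construction. In CPM the median over those genes was 32.4 and 32.0, against 129 and 124 over the members. Together the members held 0.0936% and 0.0917% of all reads.

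**Figure D1:**
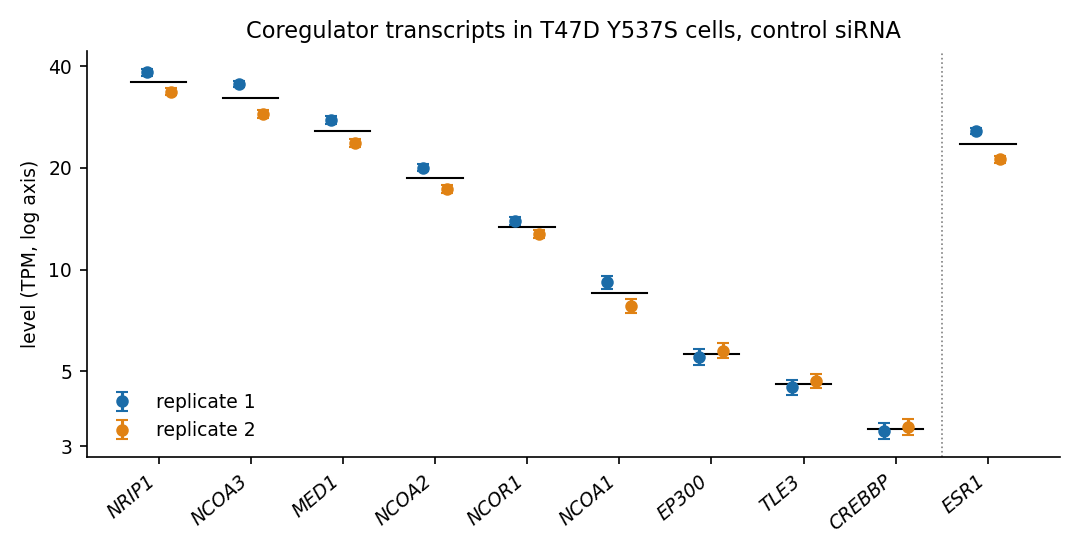
Level of each of the 9 coregulators and of ESR1 in TPM on a log axis, with 1 point per library, exact Poisson 95% counting intervals as bars and the mean of the 2 libraries as a line. The members run from NRIP1, with a mean of 35.9 TPM, down to CREBBP with 3.38 TPM, and ESR1 stands at 23.5 TPM.

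The p160 coactivators dock directly on the activated receptor and serve as platforms for acetyltransferases and methyltransferases. Among them NCOA3, also known as AIB1 or SRC-3, was the most abundant, NCOA2 was intermediate and NCOA1 the least abundant, in both libraries. NCOA3 (ENSG00000124151.14, chromosome 20, 46130601 to 46285621 on hg19, plus strand) had 7922 reads and 35.4 TPM in replicate 1 and 6461 reads and 28.8 TPM in replicate 2. NCOA2, also known as GRIP1 or SRC-2 (ENSG00000140396.8, chromosome 8, 71021997 to 71316040, minus strand), had 5325 and 4608 reads, or 20.04 and 17.33 TPM. NCOA1, or SRC-1 (ENSG00000084676.11, chromosome 2, 24714783 to 24993571, plus strand), had 2100 and 1790 reads, or 9.18 and 7.82 TPM. The libraries of the 3 genes did not overlap: each value of NCOA3 lay above both of NCOA2, and each of NCOA2 above both of NCOA1. NCOA3 made up 54.8% and 53.4% of the summed p160 TPM, NCOA2 31.0% and 32.1%, and NCOA1 14.2% and 14.5%.

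Ratios between p160 genes differed little between the libraries. Here 2 genes were called apart where the exact conditional 95% counting interval of their ratio lay on 1 side of equality, the same one in both libraries, and the mean ratio passed a limit, the 95th percentile of the differences between the libraries over genes as abundant as the lower partner. This limit compares each gene with itself between libraries. It does not cover error in the length by which the reads of different genes are divided. NCOA3 exceeded NCOA2 1.77-fold in replicate 1 (95% counting interval 1.71 to 1.83) and 1.66-fold in replicate 2 (1.60 to 1.73). The mean log2 ratio of 0.78 ± 0.060 (SD, n = 2) was above the limit of 0.28. The log2 ratio of NCOA1 to NCOA2 was -1.14 ± 0.015, beyond the limit of 0.32, so that NCOA2 stood 2.20-fold above NCOA1. NCOA3 stood 3.77-fold above NCOA1. The order of these 3 genes also held without division by length, where NCOA3 was 1.44-fold above NCOA2 and NCOA2 2.55-fold above NCOA1 in CPM.

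The acetyltransferases EP300 (p300) and CREBBP (CBP), close relatives that acetylate histones at enhancers and promoters and are recruited by p160 proteins, were among the 3 least abundant members. EP300 (ENSG00000100393.9, chromosome 22, 41487790 to 41576081, plus strand) had 1402 and 1464 reads, or 5.52 TPM in replicate 1 (95% counting interval 5.23 to 5.82) and 5.76 TPM in replicate 2 (5.47 to 6.06). CREBBP (ENSG00000005339.8, chromosome 16, 3775055 to 3930727, minus strand) had 1334 and 1365 reads, or 3.34 TPM (3.16 to 3.53) and 3.42 TPM (3.24 to 3.60). Read counts of the 2 genes were close, and the gap in TPM came with the exon length, 9585 bases in EP300 and 15068 in CREBBP. EP300 held 62.3% and 62.8% of their summed TPM. The log2 ratio was 0.74 in TPM, but 0.26 per length of the principal mRNA and 0.086 in CPM, neither of which passed the replicate limit of 0.32. The principal mRNA is the longest transcript marked principal in GENCODE release 29, a scale added after seeing the data. Their summed level, 8.86 and 9.18 TPM, was lower than that of the p160 genes, 64.6 and 54.0 TPM.

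MED1, the Mediator subunit with leucine-rich helices through which nuclear receptors contact the complex, ranked second in TPM among the Mediator and kinase module genes measured. It (ENSG00000125686.7, chromosome 17, 37560538 to 37607539, minus strand) had 5387 and 4601 reads, or 27.7 and 23.7 TPM. Of the other 29 Mediator and kinase module genes measured, 1 lay above it in TPM in each library, and 1 in CPM. In TPM this was MED19, with 28.2 and 26.8 TPM. Among all detected protein-coding genes, 78.9% lay below MED1 by mean TPM. In TPM MED1 exceeded MED14, the scaffold subunit that joins the modules of the complex, 1.80-fold in replicate 1 (1.73 to 1.88) and 1.70-fold in replicate 2 (1.63 to 1.78), a mean log2 ratio of 0.81 ± 0.060. The mean excess was 1.33-fold in CPM and 1.82-fold per length of the principal mRNA.

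**Figure D2:**
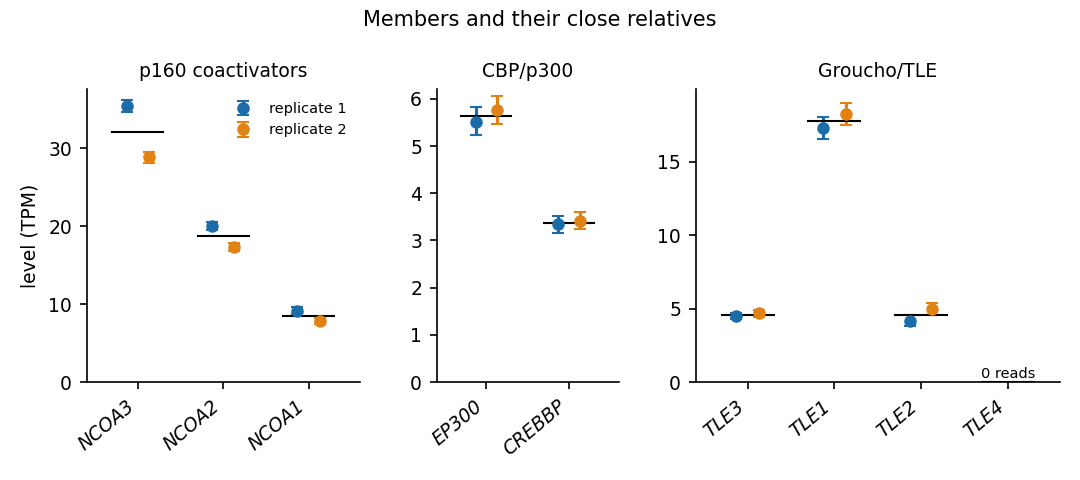
Levels in TPM, on linear axes that start at 0, of the members and their close relatives in the p160, CBP/p300 and Groucho/TLE families, with 1 point per library, exact Poisson 95% counting intervals and the mean as a line. NCOA3 leads the p160 genes, TLE1 lies above TLE3, and TLE4 has no reads in either library. TLE5 is not drawn.

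Among the corepressors, NCOR1 is the scaffold that holds histone deacetylase HDAC3 on nuclear receptors without agonist. NCOR1 (ENSG00000141027.16, chromosome 17, 15932471 to 16121499, minus strand) had 5687 and 5194 reads, or 13.9 and 12.7 TPM. By mean TPM, 61.4% of detected protein-coding genes lay below NCOR1. Of 25 other corepressor genes measured, 10 were higher in TPM in each library and 4 in CPM. Of the other subunits of this complex, HDAC3 had 28.6 and 25.6 TPM, TBL1XR1 59.5 and 44.6 TPM and TBL1X 6.10 and 5.77 TPM. GPS2 had 45 and 31 reads and was not detected by the rule, but other rows of the table share 52.5% of its exon bases, so its value is uncertain. The 3 rows named as copies of NCOR1 (NCOR1P1, NCOR1P2 and NCOR1P3) held 2 and 4 reads in all. Reads that fit both NCOR1 and such a copy were not counted by the counter's default, so NCOR1 may be underestimated.

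NRIP1, or RIP140, which binds agonist-bound receptors through leucine-rich helices and recruits deacetylases and CtBP proteins, had the highest mean TPM of the members, though it was not called apart from NCOA3 in TPM or CPM. Per length of the principal mRNA NCOA3 was higher, with 39.1 ± 2.70 CPM per kilobase against 25.1 ± 0.442 for NRIP1 (SD, n = 2). NRIP1 (ENSG00000180530.5, chromosome 21, 16333556 to 16437321, minus strand) had 8059 reads in replicate 1 and 7068 in replicate 2, or 38.3 and 33.6 TPM. NRIP1 lay above 85.8% of detected protein-coding genes. Of the same 25 genes, 4 were higher in TPM in each library. In TPM NRIP1 exceeded LCOR, another corepressor of agonist-bound receptors, 4.60-fold in replicate 1 (4.39 to 4.81) and 5.52-fold in replicate 2 (5.24 to 5.82). The mean excess was 3.60-fold in CPM and 7.51-fold per length of the principal mRNA.

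TLE3 is a Groucho-type corepressor that lacks DNA binding of its own and is brought to chromatin by factors such as FOXA1. TLE3 (ENSG00000140332.11, chromosome 15, 70340129 to 70390515, minus strand) had 1502 and 1570 reads, or 4.49 TPM in replicate 1 (4.26 to 4.72) and 4.69 TPM in replicate 2 (4.46 to 4.92). Its relative TLE1 was higher, with 17.3 and 18.3 TPM. The log2 ratio of TLE3 to TLE1 was -1.95 ± 0.011, a 3.88-fold excess of TLE1, which was 1.51-fold in CPM. TLE2 had 4.17 and 4.97 TPM. The log2 ratio of TLE3 to TLE2 in TPM was 0.011 ± 0.13, within the replicate spread. In CPM, however, TLE3 was 3.15-fold above TLE2, and per length of the principal mRNA 1.42-fold, both past the limit. TLE4 had no reads in either library. Against the floor of 3 reads per library, TLE3 was at least 320-fold higher in replicate 1 and at least 334-fold higher in replicate 2. Over the 4 TLE genes compared, TLE1 to TLE4, TLE3 held 17.3% and 16.8% of the summed TPM. TLE5, measured among the other corepressors, had 28.8 and 25.9 TPM and was not part of this sum.

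The members were put in order by mean TPM, and the 8 ratios between neighbours are given as a description, since the same TPM set the order; 6 of them passed the limit. NRIP1 and NCOA3 were not (log2 ratio 0.17 ± 0.074, limit 0.28), nor were EP300 and TLE3 (0.30 ± 0.0010, limit 0.32). NCOA3 stood 1.25-fold above MED1, MED1 1.37-fold above NCOA2, NCOA2 1.40-fold above NCOR1, NCOR1 1.57-fold above NCOA1 and NCOA1 1.50-fold above EP300. At the low end TLE3 stood 1.36-fold above CREBBP. Of all 36 pairs of members, 34 were called apart in TPM and 29 in CPM. The share called among pairs of other detected genes was not computed, so no count of called pairs can be read as particular to the members. In CPM 3 of the 8 neighbouring pairs were called apart. Per length of the principal mRNA 7 were, of which NRIP1 to NCOA3 (log2 ratio -0.64) and EP300 to TLE3 (-0.78) had the opposite direction to TPM. The fine order thus depends on the length by which reads are divided. The members have long exon sets, with a median of 9585 bases against 4969 for detected protein-coding genes, and the shortest, MED1 with 7330 bases, is longer than 75.7% of those genes.

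The level of the receptor's own transcript gave a scale for its partners. ESR1 had 25.7 and 21.2 TPM. NRIP1 stood 1.49-fold above ESR1 in replicate 1 (1.45 to 1.54) and 1.58-fold in replicate 2 (1.53 to 1.64), and NCOA3 1.38-fold (1.34 to 1.42) and 1.36-fold (1.32 to 1.41). In TPM these 2 of 9 members were called above ESR1, against 18.3% of the other detected protein-coding genes. In TPM MED1 was within the replicate spread of ESR1 (log2 ratio 0.13 ± 0.035). The other 6 lay below the receptor, from NCOA2 with a log2 ratio of -0.33 ± 0.048 to CREBBP with -2.79 ± 0.22. ESR1 has 13629 summed exon bases, while its principal mRNA in GENCODE release 29 has 6466. Per length of the principal mRNA, no member was called above ESR1: the log2 ratio was -0.41 for NRIP1, 0.23 for NCOA3 and -0.61 for MED1. On this scale NRIP1 and MED1 were called below ESR1. In CPM none was called above ESR1 either, with -0.16 for NRIP1 and -0.24 for NCOA3, and MED1 was called below it with -0.76. For these 6, NCOA2, NCOR1, NCOA1, EP300, TLE3 and CREBBP, the call below ESR1 was the same on all 3 scales.

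**Figure D3:**
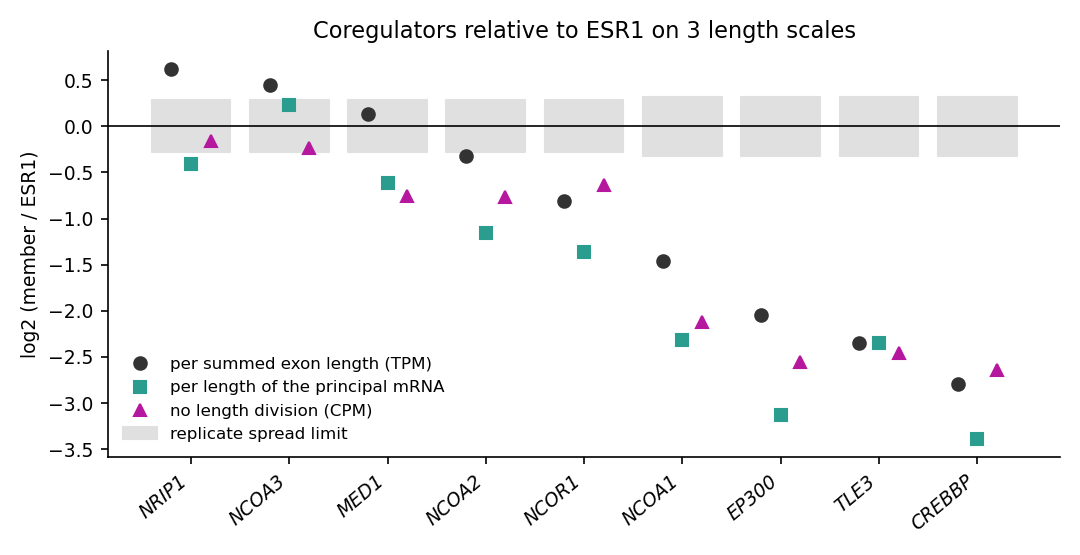
Mean log2 ratio of each member to ESR1 over the 2 libraries, with reads divided by summed exon length (circles), by the length of the principal mRNA (squares) or by no length (triangles), and grey bands for the limit of the replicate spread. NRIP1 and NCOA3 lie above the band in TPM only, while NCOA2, NCOR1, NCOA1, EP300, TLE3 and CREBBP lie below it on all 3 scales. MED1 lies below the band in CPM and per principal mRNA, and NRIP1 per principal mRNA.

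With counts scaled by TMM effective library sizes, 0 of 9 members were outside the replicate spread of their CPM class, against 5.02% of detected genes, a share near 5% by construction, so this count says nothing particular about the members. No test was made. Differences between the libraries were 0.12 or less on the log2 scale for NCOA1, NCOA2, NCOA3, MED1, NCOR1 and NRIP1. They were 0.24 for EP300, 0.24 for TLE3 and 0.21 for CREBBP, each higher in replicate 2. The limit for these 3 was 0.32, and between 80.2% and 86.0% of genes in their class differed less.

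**Figure D4:**
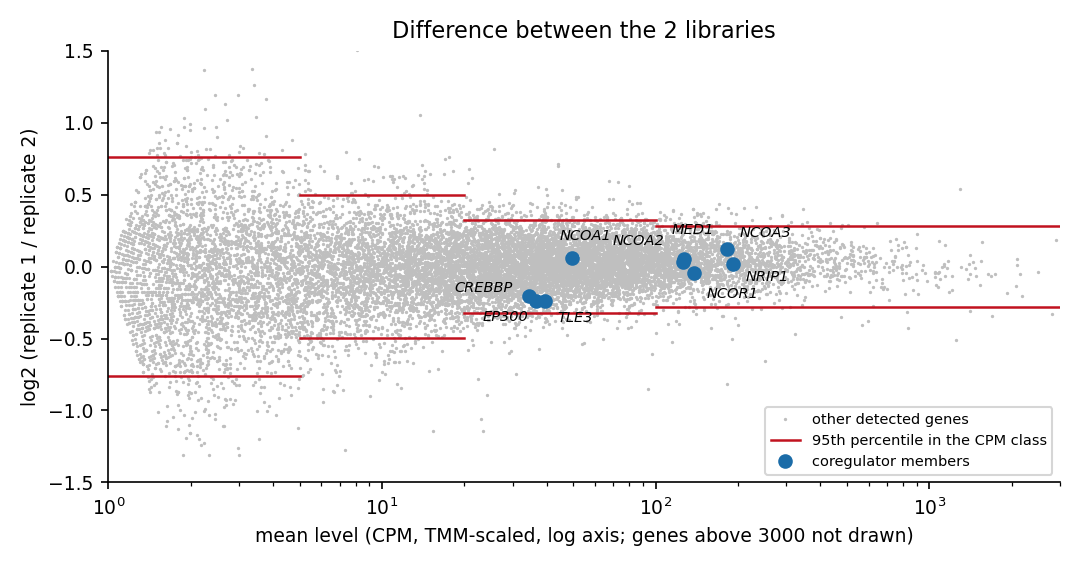
Log2 ratio of replicate 1 to replicate 2 against the mean level in CPM on a log axis, after TMM scaling, for detected genes (grey) and the 9 members (blue), with the 95th percentile of absolute differences per CPM class as red lines. All 9 members lie between the lines, and EP300, TLE3 and CREBBP lie lowest; genes beyond the axis limits are not drawn.

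The members' median of 13.3 ± 0.860 TPM was set beside those of the wider coregulator lists. How they compare depends on the division by length. In CPM the members' median was 129 in replicate 1 and 124 in replicate 2. It was 40.9 and 44.3 CPM for the other coactivators, 30.1 and 28.4 for the Mediator genes and 54.4 and 50.9 for the other corepressors. All 20 other coactivators measured were detected, with a median of 13.3 and 12.1 TPM. DDX5 and DDX17, RNA helicases that also act as coactivators, led them with 126 ± 8.88 and 78.3 ± 7.45 TPM (SD, n = 2), and the arginine methyltransferase PRMT1 had 39.9 ± 3.01 TPM. The least abundant were NCOA7 with 2.58 ± 0.536, PPARGC1B with 1.51 ± 0.181 and PPARGC1A, a coactivator of energy metabolism, with 0.267 ± 0.0940 TPM. Of these 20 genes, 3 were above NCOA3 in TPM and 17 above CREBBP. Among all detected protein-coding genes, 83.7% lay below NCOA3 and 23.9% below CREBBP. All 29 other Mediator genes measured were detected, with a median of 13.1 and 12.6 TPM, led by MED19 with 27.5 ± 1.02, MED13 with 23.8 ± 3.24 and MED8 with 21.3 ± 0.453 TPM. Their lowest were MED15 with 2.69 ± 0.0761, MED31 with 2.25 ± 0.470 and MED26 with 1.84 ± 0.159 TPM.

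Of 25 other corepressors, 21 were detected, with a median over all 25 of 9.36 and 8.24 TPM. MTA2, a subunit of the NuRD complex, led with 92.0 ± 8.51 TPM, followed by the deacetylase HDAC1 with 63.7 ± 6.37 and TBL1XR1 with 52.0 ± 10.6 TPM. The 4 not detected were TLE4 and the orphan receptors NR0B1 and NR0B2, which had no reads in either library, and GPS2.

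**Figure D5:**
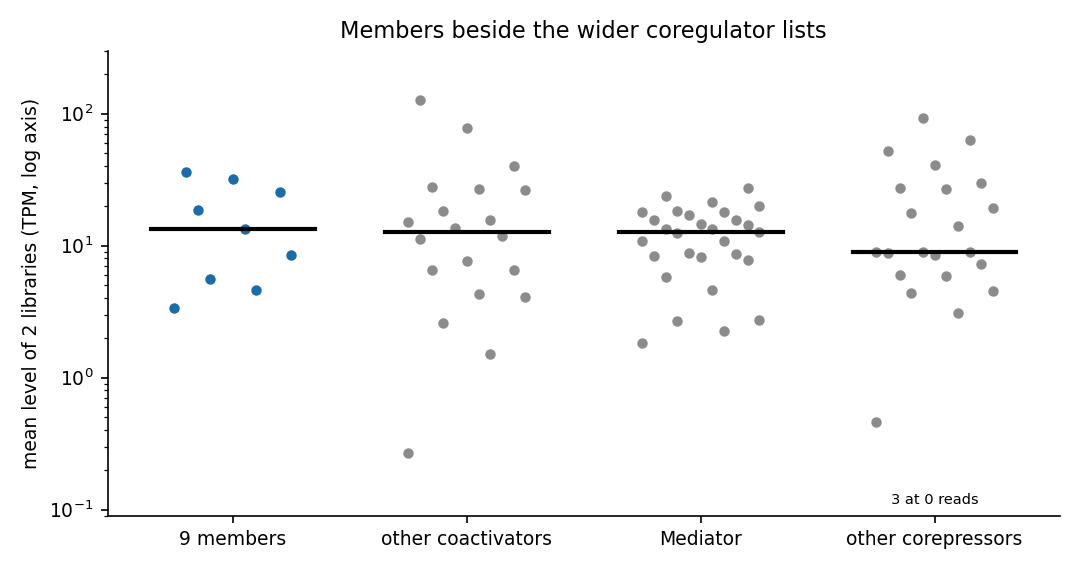
Mean TPM of the 2 libraries on a log axis for the 9 members and for the other coactivators, Mediator genes and corepressors, with 1 point per gene and the list's median as a line. The members span 3.38 to 35.9 TPM, and 3 corepressors with no reads are given as a count.

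Overlap with other genes was small for the members. Other rows share 7.08% of the exon bases of NRIP1, all on the opposite strand in a row without reads, and 1.92% of NCOR1, 1.19% of EP300 and 1.14% of NCOA3. No exon bases of NCOA1, NCOA2, MED1, TLE3 or CREBBP are shared. The overlapping row at NCOA3 is SULF2, with 1374 and 1556 reads, and that at NCOR1 is PIGL, with 263 and 239 reads. Only MED1 and NCOR1 lie on the same chromosome. Within 1000000 bases on either side, NRIP1 was above all 3 detected protein-coding genes, NCOR1 was above all but 1 of 15, and NCOA3 above all but 1 of 6. EP300 and CREBBP lie near many detected genes, of which 26 of 31 were above EP300 and 36 of 47 above CREBBP. Over all detected protein-coding genes, 85.8% lay below NRIP1, 83.7% below NCOA3, 61.4% below NCOR1, 35.6% below EP300 and 23.9% below CREBBP. Whether the neighbours differ from other detected genes was not tested.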

How the data were processed

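Per the labels' protocols, total RNA was depleted of ribosomal RNA and made into stranded libraries, 2 of them in 1 group. Per the file headers, the authors deposited whole-number read counts per gene, made with featureCounts 2.0.2 from the exons in GENCODE release 19, with no option for strand, pairs, multimapping or overlap in the recorded call. HISAT2 and the build hg19 are named in the submitters' processing notes. Without strand, reads of a gene and its antisense partner cannot be told apart. Gene length in the deposited table, another value used here, is the summed exon length. Columns were assigned through the line, the mutated residue and the replicate number in their names, which do not repeat the siRNA. Another 8 columns of per-sample values match no sample described here and were not used in any step.

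From the counts, CPM and TPM were computed over all 57820 genes. Symbols were matched by identifier for 51996 rows (89.9%). Of 98 list entries 1, NCOA4, was not matched. Principal mRNA lengths and gene types came from GENCODE release 29, whose coordinates were not used. A principal mRNA is the longest transcript marked principal, and it can lack part of the untranslated regions: for NCOA3 it has 4668 bases, against 8447 exon bases in the deposited table. Intervals are exact 95% Poisson or conditional binomial intervals, the floor for 0 counts is 3 reads, and both cover counting error only. Replicate limits were 95th percentiles in classes split at 5, 20 and 100 CPM, after TMM scaling in edgeR 4.0.16; DESeq2 1.42.0 size factors and total counts were alternatives. The calculations were tested on simulated data. There being 1 group, conditions were not tested and no p-value is given.

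The members and lists were chosen with earlier results of these data known. Named were the members, ESR1, their relatives in the compared pairs and the 3 highest and 3 lowest of each wider list. TBL1X, HDAC3, GPS2 and TLE5, the corepressors not detected, the genes that overlap NCOR1 and NCOA3 and the copies of NCOR1 were named after their values were seen. A planned pair and list entry is not reported here. No gene was named for a like pattern, since 2 libraries of 1 group hold none.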

Additional observations from a re-analysis of the deposited data

How the results depend on the processing

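Leaving out either replicate left the count of members detected at 9 (9 to 9) and of neighbouring pairs called apart at 6 (6 to 6). Family pairs called apart stayed at 8 of 9 and members above ESR1 at 2. The limit for these calls was still set from both libraries. A pair called in the main setting already had an interval that excluded equality in each library. Such a call could therefore be lost only through the size of its ratio. The median member level was 12.7 to 13.9 TPM, against 13.3. With CPM in place of TPM, 3 neighbouring pairs and 0 members above ESR1 were called and the median was 126 CPM; with TPM over nuclear protein-coding genes it was 47.4. With the length of the principal mRNA, chosen after seeing the data, 0 members were called above ESR1. By their construction these alternatives change only the length or total by which reads are divided. For the pair counts, no share over pairs of other detected genes was computed. In CPM the log2 ratio turned to -0.13 for NCOA2 to NCOR1, -0.16 for NRIP1 to ESR1, -0.24 for NCOA3 to ESR1 and -0.76 for MED1 to ESR1. Per principal mRNA it turned to -0.64 for NRIP1 to NCOA3, -0.78 for EP300 to TLE3, -0.41 for NRIP1 to ESR1 and -0.61 for MED1 to ESR1. Of the 26 ratios, 24 kept their call at the 99th percentile of replicate differences; NCOA3 to MED1 and NCOA2 to ESR1 lost it. All 9 members stayed detected at 5 CPM or 10 counts, and none left the replicate spread with DESeq2 size factors, total counts or all genes with a count. No paired analysis was possible because there is 1 group. With 2 libraries, the SDs are themselves imprecise.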
